A study of Mus musculus with 18 samples.

Results

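Astrocytes, cells of the oligodendrocyte lineage, neurons, fibroblasts, mural cells and endothelial cells share the developing brain with microglia, its resident macrophages. The markers of these other cells were read here in 18 messenger RNA libraries of cultured mouse microglia. The set holds 34 of the 50686 genes in the deposited count table. Its members were chosen by name as textbook markers, by no threshold on measured values, though with earlier results of these data known: 9 stand for astrocytes, 9 for oligodendrocytes and their precursors, 5 for neurons, 6 for fibroblasts, 3 for mural cells and 2 for endothelium.

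Microglia are grown from mixed cultures of newborn brain, where they sit on a layer of astrocytes, and are then harvested. Oligodendrocyte precursors also survive on that layer, and fibroblasts of the meninges and vessel cells can come along with the tissue. Markers of these cells therefore serve as a gauge of RNA from cells other than microglia. Some markers are not exclusive to 1 cell type: the Mbp locus also gives the Golli transcripts of immune cells, Pecam1 is carried by leukocytes, Pdgfra by fibroblasts as well as oligodendrocyte precursors, and Cspg4 by pericytes as well as those precursors.

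All libraries came from primary microglia of C57BL/6 pups, prepared from the forebrain at postnatal day 2 and kept in culture for 7 days before and 7 days after the medium was changed. Serum was at 10% for all of them. There were 6 genotypes with 3 libraries each. Their label names are Tbk1+/- with Tak1ΔM/+ and 1 copy of Ripk1 D138N (written Tbk1het Tak1het Ripk1het), Tbk1+/- with Tak1ΔM/+ (Tbk1het Tak1het), Tbk1+/- with 2 copies of Ripk1 D138N (Tbk1het Ripk1hom), Tak1ΔM/+ alone (Tak1het), Tbk1+/- alone (Tbk1het), and WT. TBK1 and TAK1 are kinases that hold RIPK1 in check downstream of the tumor necrosis factor receptor, and D138N makes RIPK1 kinase-dead; the series title asks how far TBK1 limits cell death and inflammation through RIPK1. Neither the extent of the ΔM allele and what drives it nor the origin of a genotype's 3 libraries (separate pups, cultures or not) is stated. The p-values therefore measure only the spread between libraries, which may be technical.

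Total counts ran from 8016559 in Tbk1het Tak1het replicate 2 to 22989116. The label check on Tbk1 itself gave 123, 107 and 115 CPM in the libraries labelled Tbk1het Tak1het Ripk1het, 55, 56.3 and 65.9 in Tbk1het Tak1het, 129.7, 54.9 and 131 in those labelled Tbk1het Ripk1hom, 133, 106 and 87.9 in Tak1het, 50.5, 65.6 and 57.1 in Tbk1het and 106, 104 and 149 in WT (replicates 1, 2 and 3 in this order here and throughout; CPM is the count divided by the scaled library total, times 1e6). Thus 5 libraries labelled Tbk1+/- stood in the WT range, namely all 3 with 1 copy of D138N and Tbk1het Ripk1hom replicates 1 and 3, which limits every direction drawn from them. Map3k7, which encodes TAK1, had 10.2, 11.6 and 6.99 CPM in the libraries labelled Tbk1het Tak1het Ripk1het, 15.8, 11.4 and 6.56 in Tbk1het Tak1het, 16.6, 15.1 and 9.33 in those labelled Tbk1het Ripk1hom, 9.97, 8.96 and 7.34 in Tak1het, 13.2, 12 and 14.8 in Tbk1het and 10.9, 10.4 and 19.2 in WT, so its total count did not separate the ΔM genotypes. Ripk1 had 61.9, 23.1 and 26.2 CPM in the libraries labelled Tbk1het Tak1het Ripk1het, 49, 55.7 and 70.9 in Tbk1het Tak1het, 49.5, 23.7 and 16.2 in those labelled Tbk1het Ripk1hom, 36.6, 46.8 and 14.5 in Tak1het, 21.4, 13.6 and 19 in Tbk1het and 19, 17 and 23.8 in WT, and a count does not show the D138N change. Mitochondrially encoded genes took 0.367% to 0.671% of the counts in 8 libraries (all of Tbk1het Tak1het, replicate 1 labelled Tbk1het Tak1het Ripk1het, replicates 1 and 3 labelled Tbk1het Ripk1hom, Tak1het replicate 1 and WT replicate 3) and 1.05% to 2.20% in the other 10. The summed level of 4 Y-linked genes was 93.8, 99.5 and 75.9 CPM of unscaled totals in Tbk1het Tak1het and 3.02, 0 and 0 in Tak1het, so sex and genotype cannot be told apart in the comparison of those groups.

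Genes of microglia and of macrophages in general were abundant. All 17 genes of a microglia list had counts in every library, and their summed level was 20026, 18537 and 19664 CPM in the libraries labelled Tbk1het Tak1het Ripk1het, 18469.6, 17569 and 18946 in Tbk1het Tak1het, 20083, 18006 and 19878 in those labelled Tbk1het Ripk1hom, 19653, 20462 and 20272 in Tak1het, 17838, 20198 and 18909 in Tbk1het and 18942, 17823 and 18752 in WT. Csf1r, the receptor on which microglia depend, averaged 2207 CPM, while Tmem119 and P2ry12, markers of microglia in the intact brain, averaged 4.21 and 10.5 CPM. Mrc1 and Pf4, markers of border macrophages, averaged 281 and 174 CPM.

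Against these, the markers of other cells were scarce. All 34 together summed to 135, 186 and 213 CPM in the libraries labelled Tbk1het Tak1het Ripk1het, 139.9, 155 and 148 in Tbk1het Tak1het, 158, 112 and 138.1 in those labelled Tbk1het Ripk1hom, 92.5, 119.6 and 109 in Tak1het, 111, 121 and 146 in Tbk1het and 207, 172 and 147 in WT. Mbp, Aldoc and Aldh1l1 were the 3 highest by mean: the other 31 summed to between 17.4 CPM in the library labelled Tbk1het Ripk1hom replicate 2 and 104 CPM in WT replicate 1. Tak1het libraries held 19, 18.9 and 20.2 CPM of these 31, below every library but that 1. Per length of exon, the median marker averaged 0.213 CPM per kb over the 18 libraries, and the median gene of the microglia list 382 CPM per kb.

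Every one of the 34 had at least 1 count somewhere, 22 averaged 1 CPM or more, and 8 had counts in all 18 libraries. A gene without reads in a library may still have up to 3 counts there, which is 0.130 to 0.374 CPM of unscaled totals depending on depth. Of the 34, 26 passed the filter on low counts and were tested among 13447 genes. Aqp4, S100b, Mog, Snap25, Lum, Pdgfrb, Vtn and Cldn5 did not, and some that did had reads in few groups. On the scale of level per length, 19 of the 26 tested markers lay in the lowest 25% of tested genes, with a median percentile of 14.8. Reads of genes whose exons overlap a marker could be mixed in, since the library chemistry does not mark strand, but the annotated overlaps touch 5 markers and the overlapping genes averaged 0 to 0.0186 CPM.

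**Figure D1:**
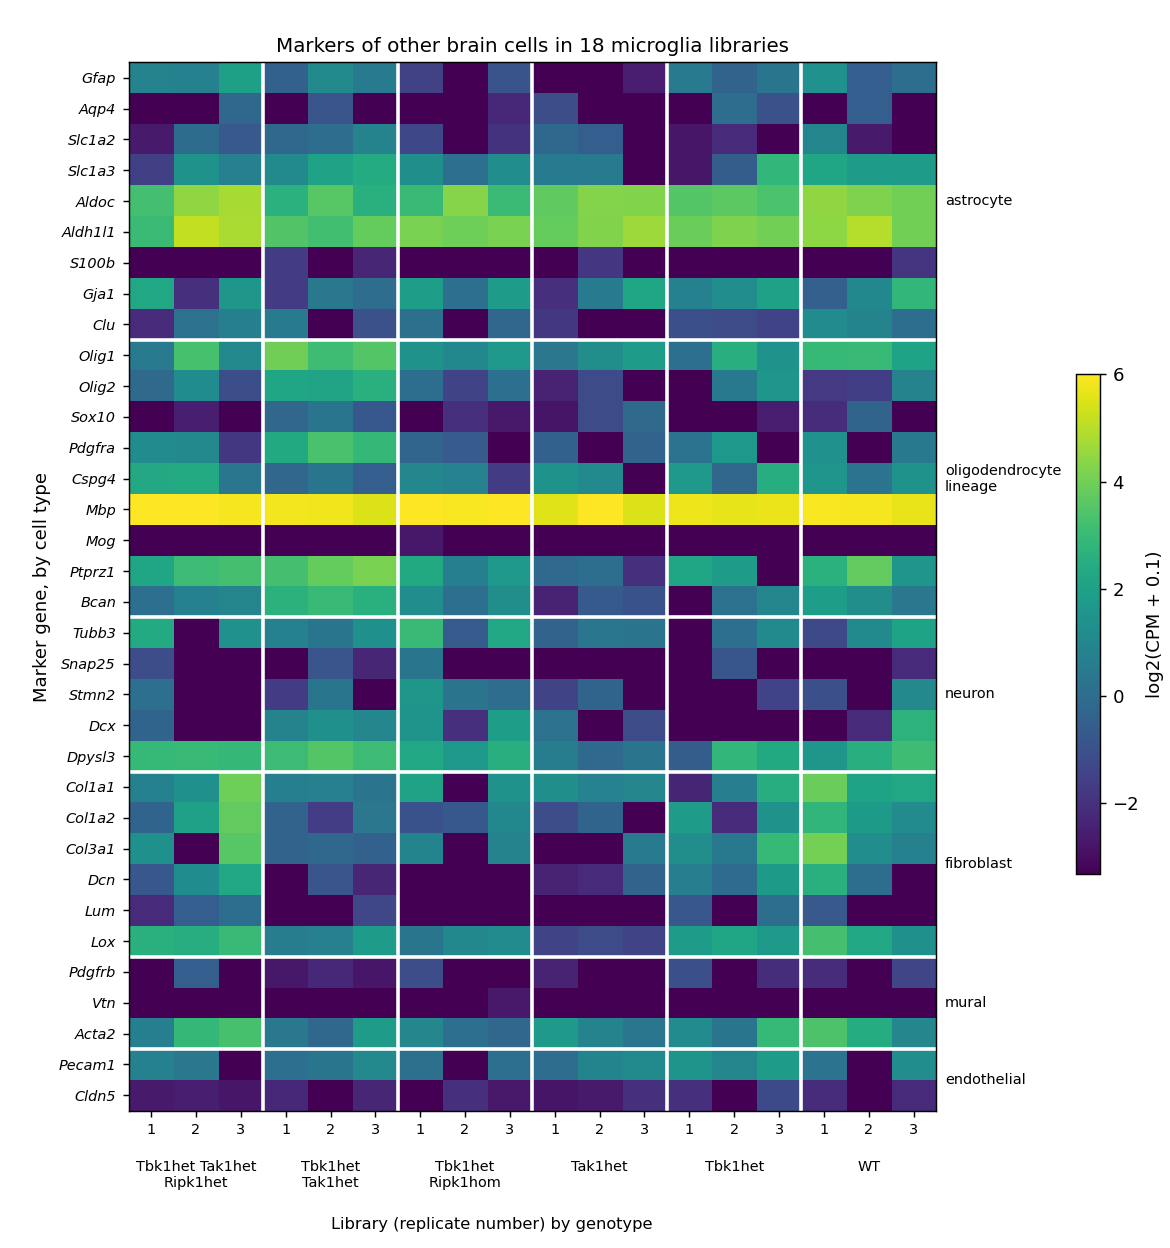
Level of each of the 34 markers (rows, by cell type) in each of the 18 libraries (columns, by genotype and replicate), as log2(CPM + 0.1). Mbp, Aldoc and Aldh1l1 are bright in every column, and Olig2, Pdgfra and Bcan are brighter in the 3 Tbk1het Tak1het columns than in the other 15.

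**Figure D2:**
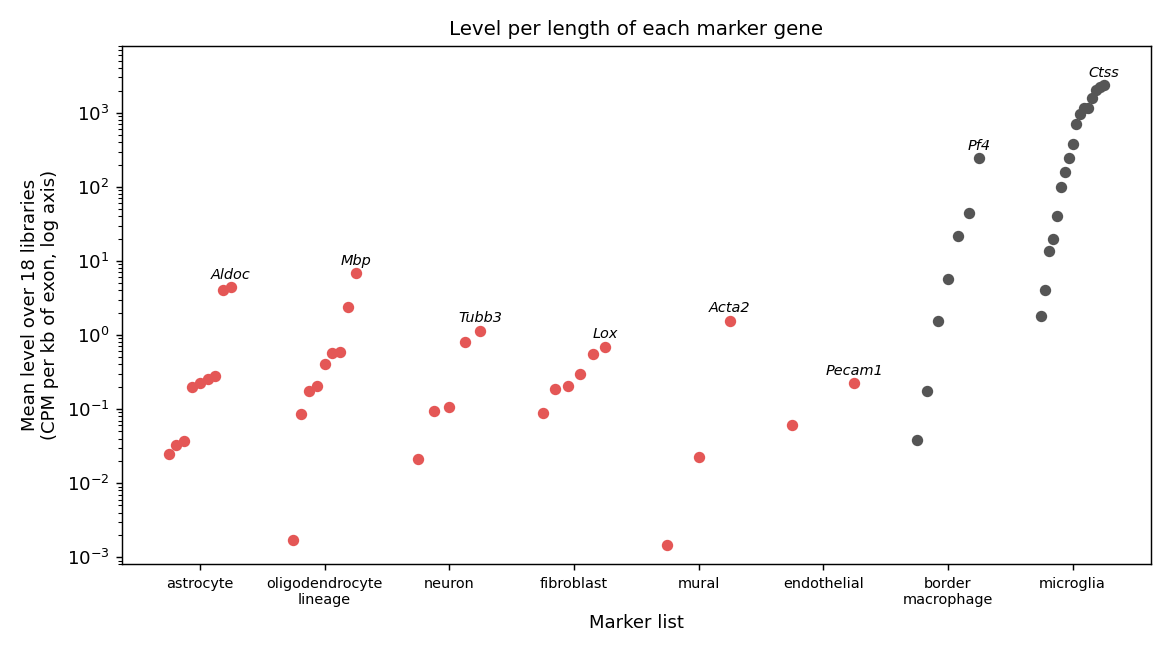
Mean level per length over 18 libraries (CPM per kb of exon, log axis) of each marker, in red, and of the genes of the border macrophage and microglia lists, in grey. The red points lie between 0.00147 CPM per kb for Vtn and 6.83 for Mbp, and the microglia genes between 1.82 for Tmem119 and 2340 for Ctss.

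Over the 6 genotypes, 5 of the 26 tested markers differed: Gfap, Ptprz1, Bcan, Dpysl3 and Lox. Of all tested genes 7.18% were called in that overall test. The 5 fall in 4 of the cell types, and they shared a low level in Tak1het libraries. Leaving out each library in turn left 1 to 6 of the markers called, always with Lox among them. It was Lox alone without Tak1het replicate 1 or 2, without Tbk1het Tak1het replicate 2 or 3, or without replicate 3 labelled Tbk1het Tak1het Ripk1het. It was 2 markers without Tak1het replicate 3, Tbk1het Tak1het replicate 1, WT replicate 2, or replicate 1 or 3 labelled Tbk1het Ripk1hom, and 3 without WT replicate 1 or replicate 2 labelled Tbk1het Tak1het Ripk1het. With the Y-linked level as a covariate, Ptprz1 and Bcan were not called in the overall test, while Aldoc and Dcx were. With the mitochondrial share as a covariate, only Lox was called. Gfap (ENSMUSG00000020932) lies on chromosome 11 from 102887336 to 102900912, Ptprz1 (ENSMUSG00000068748) on chromosome 6 from 22875502 to 23052916, and Bcan (ENSMUSG00000004892) on chromosome 3 from 87987531 to 88000230, in GENCODE M21 on GRCm38. Dpysl3 (ENSMUSG00000024501) lies on chromosome 18 from 43320984 to 43438286 and Lox (ENSMUSG00000024529) on the same chromosome from 52516067 to 52529867. In bulk RNA, fewer cells of a type and less of the RNA per cell cannot be told apart, here or in any result that follows.

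The oligodendrocyte lineage markers other than Mbp, taken as a sum, stood out in the Tbk1het Tak1het libraries. Without Mbp, the 8 others summed to 42.3, 46.7 and 48.9 CPM in Tbk1het Tak1het, 14.5, 28.8 and 15 in the libraries labelled Tbk1het Tak1het Ripk1het, 13.5, 7.07 and 9.6 in those labelled Tbk1het Ripk1hom, 5.51, 6.56 and 5.49 in Tak1het, 9.64, 15.2 and 13 in Tbk1het and 22.8, 25.8 and 13.7 in WT. The 3 Tbk1het Tak1het sums without Mbp lay above all 15 others, and the 3 Tak1het sums below all others. With Mbp, the 9 summed to 98.9, 103 and 93.8 CPM in Tbk1het Tak1het. Replicate 1 labelled Tbk1het Ripk1hom, at 95.8 CPM, reached that range. The Tak1het sums with Mbp were 52, 69.7 and 51 CPM and overlapped those of Tbk1het and WT. Of the 9 markers, 6 (Olig1, Olig2, Sox10, Pdgfra, Ptprz1 and Bcan) reached their highest library in Tbk1het Tak1het. The microglia sums given above overlapped between Tbk1het Tak1het and every genotype but Tak1het, whose 3 libraries lay higher. In the same libraries the summed level of 5 cell cycle genes (Mki67, Top2a, Ccnb1, Cdk1 and Birc5) was 32.4, 33.3 and 36.9 CPM in Tbk1het Tak1het, against 56.1, 133 and 124 in Tak1het, 353, 99.1 and 356 in Tbk1het and 117, 163 and 101 in WT, and their part in the marker levels was not tested.

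Olig1 and Olig2 are helix-loop-helix factors that set the oligodendrocyte fate, and Sox10 is the factor that maintains it. Olig2 had 4.45, 4.28 and 6.02 CPM in Tbk1het Tak1het, 0.829, 2.19 and 0.373 in the libraries labelled Tbk1het Tak1het Ripk1het, 0.929, 0.277 and 0.965 in those labelled Tbk1het Ripk1hom, 0.0911, 0.351 and 0 in Tak1het, 0, 1.26 and 2.92 in Tbk1het and 0.19, 0.236 and 1.68 in WT. The Tbk1het Tak1het libraries were the 3 highest of the 18, with no overlap, as held for 2.54% of all tested genes. Olig1 had 15.7, 8.56 and 11.3 CPM in Tbk1het Tak1het, 1.3, 9.72 and 2.01 in the libraries labelled Tbk1het Tak1het Ripk1het, 2.63, 1.94 and 3.0 in those labelled Tbk1het Ripk1hom, 1.18, 2.34 and 3.43 in Tak1het, 0.964, 5.65 and 2.65 in Tbk1het and 7.4, 7.89 and 4.17 in WT. For Olig1 the Tbk1het Tak1het libraries lay above every WT, Tbk1het and Tak1het library, and 1 library labelled Tbk1het Tak1het Ripk1het reached into their range. Sox10 averaged under 1 CPM and ranged from 0 to 1.13 CPM, with its highest value in Tbk1het Tak1het replicate 2.

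Pdgfra, the growth factor receptor of oligodendrocyte precursors, had 4.93, 9.8 and 7.31 CPM in Tbk1het Tak1het, 2.13, 1.97 and 0.187 in the libraries labelled Tbk1het Tak1het Ripk1het, 0.723, 0.555 and 0 in those labelled Tbk1het Ripk1hom, 0.638, 0 and 0.686 in Tak1het, 1.06, 3.02 and 0 in Tbk1het and 2.53, 0 and 1.28 in WT. Again the Tbk1het Tak1het libraries were the 3 highest of the 18. Cspg4, the NG2 proteoglycan of the same precursors, did not follow it, with 0.742, 1.13 and 0.597 CPM in Tbk1het Tak1het, 4.86, 5.04 and 1.17 in the libraries labelled Tbk1het Tak1het Ripk1het, 1.91, 1.66 and 0.215 in those labelled Tbk1het Ripk1hom, 2.64, 2.05 and 0 in Tak1het, 3.08, 0.742 and 5.5 in Tbk1het and 2.91, 1.06 and 2.61 in WT. The Tbk1het Tak1het libraries lay in the lower part of the range of Cspg4, below every library labelled Tbk1het Tak1het Ripk1het and overlapping each of the remaining genotypes.

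Ptprz1 is a receptor phosphatase of precursors and of radial glia and astrocytes, and Bcan encodes brevican, a matrix proteoglycan of precursors and astrocytes. Ptprz1 had 9.48, 14 and 17.2 CPM in Tbk1het Tak1het, 4.38, 8.19 and 9.51 in the libraries labelled Tbk1het Tak1het Ripk1het, 5.01, 1.53 and 3.0 in those labelled Tbk1het Ripk1hom, 0.82, 0.937 and 0.137 in Tak1het, 4.53, 3.48 and 0 in Tbk1het and 6.14, 13.6 and 2.78 in WT. The Tak1het libraries were low, and WT replicate 2 and replicate 3 labelled Tbk1het Tak1het Ripk1het reached the Tbk1het Tak1het range. Bcan had 6.3, 7.88 and 6.02 CPM in Tbk1het Tak1het, 0.948, 1.61 and 1.77 in the libraries labelled Tbk1het Tak1het Ripk1het, 2.27, 0.971 and 2.36 in those labelled Tbk1het Ripk1hom, 0.0911, 0.527 and 0.411 in Tak1het, 0, 1.03 and 1.86 in Tbk1het and 3.54, 2.36 and 1.22 in WT. No other library reached the 3 Tbk1het Tak1het libraries for Bcan.

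Mbp and Mog encode proteins of mature myelin. Mbp ranged from 44.9 to 82.3 CPM, with 56.6, 56 and 44.9 CPM in Tbk1het Tak1het, 67.5, 62.8 and 57.8 in the libraries labelled Tbk1het Tak1het Ripk1het, 82.3, 60.2 and 70.5 in those labelled Tbk1het Ripk1hom, 46.5, 63.2 and 45.5 in Tak1het, 54.4, 50 and 52.7 in Tbk1het and 59.6, 59.2 and 52.1 in WT. Mog had 1 count in all, in the library labelled Tbk1het Ripk1hom replicate 1. The level of Mbp thus came without that of Mog, and the 3 Tbk1het Tak1het libraries were not its highest.

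**Figure D3:**
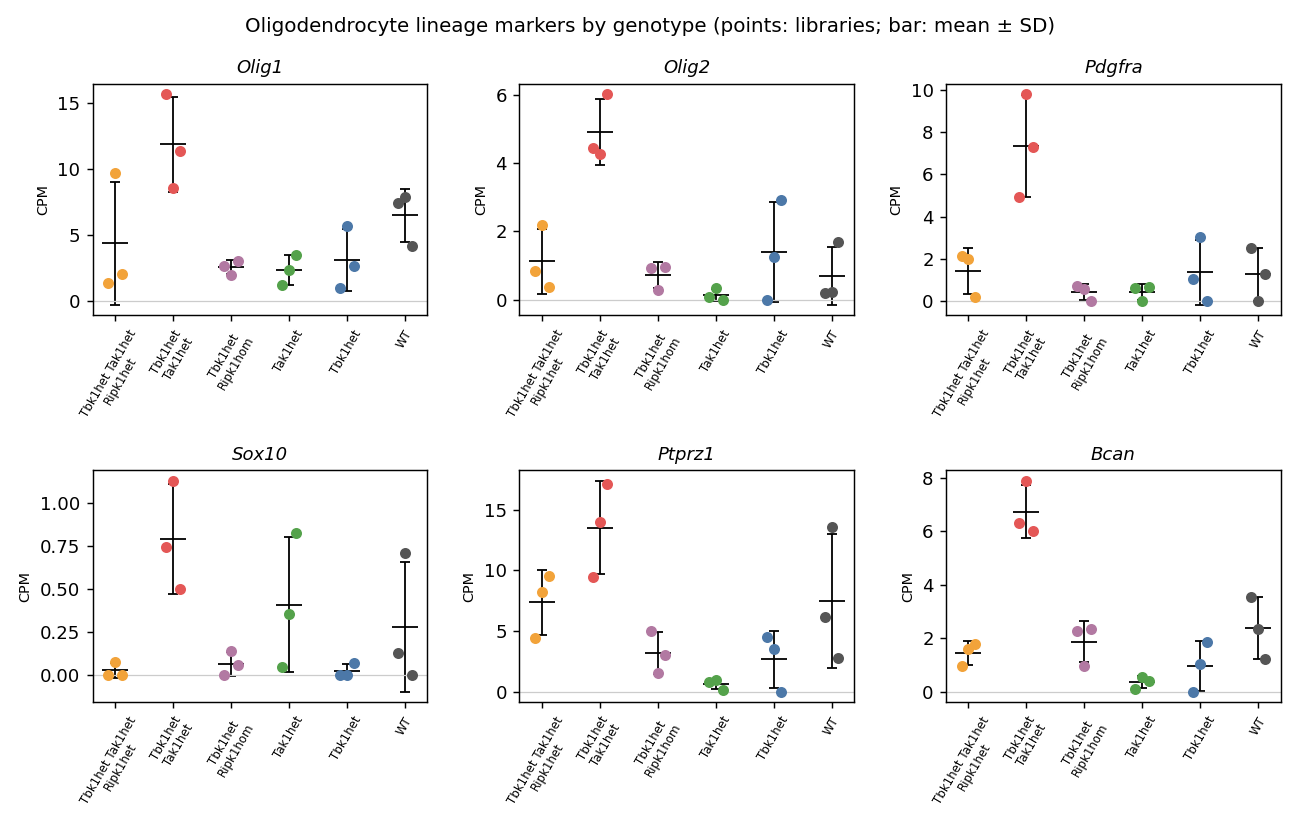
Level (CPM) of 6 oligodendrocyte lineage markers by genotype; points are libraries, and the bar and whiskers give the mean and SD of 3 libraries. Olig2, Pdgfra and Bcan show the 3 Tbk1het Tak1het points above all others, with means of 4.92 ± 0.958, 7.35 ± 2.44 and 6.74 ± 1.0 CPM.

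The promoters of 5 markers are printed to show what they hold near their starts: 4 oligodendrocyte lineage markers with a mean highest in Tbk1het Tak1het, and Gfap, which was called in the comparison with Tak1het. They come from RefSeq on GRCm38.p6, where 20 of the 34 markers have an entry, and run 5′ to 3′ from 250 bases before to 50 bases after the start. Capitals mark CANNTG, the E box bound by helix-loop-helix factors such as OLIG2, and CAAAG or CAATG, the core bound by SOX factors such as SOX10; both strands were searched, so CATTG or CTTTG also marks a match, and the 2 motifs do not overlap here. They are Ptprz1 (chr6:22875252-22875551, plus strand), Bcan (chr3:88000307-88000606, minus strand), Olig2 (chr16:91225300-91225599, plus strand), Pdgfra (chr5:75152001-75152300, plus strand) and the astrocyte marker Gfap (chr11:102897151-102897450, minus strand).
Ptprz1: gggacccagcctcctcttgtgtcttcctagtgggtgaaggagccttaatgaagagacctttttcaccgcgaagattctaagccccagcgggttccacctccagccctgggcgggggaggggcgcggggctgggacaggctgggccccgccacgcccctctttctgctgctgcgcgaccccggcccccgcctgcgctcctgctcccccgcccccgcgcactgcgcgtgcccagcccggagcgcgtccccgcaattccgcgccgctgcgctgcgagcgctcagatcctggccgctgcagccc
Bcan: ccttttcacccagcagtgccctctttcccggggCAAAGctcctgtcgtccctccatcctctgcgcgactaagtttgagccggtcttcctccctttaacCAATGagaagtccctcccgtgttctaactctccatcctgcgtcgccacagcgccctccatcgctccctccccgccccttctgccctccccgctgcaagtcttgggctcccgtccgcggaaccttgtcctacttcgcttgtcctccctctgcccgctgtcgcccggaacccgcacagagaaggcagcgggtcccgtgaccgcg
Olig2: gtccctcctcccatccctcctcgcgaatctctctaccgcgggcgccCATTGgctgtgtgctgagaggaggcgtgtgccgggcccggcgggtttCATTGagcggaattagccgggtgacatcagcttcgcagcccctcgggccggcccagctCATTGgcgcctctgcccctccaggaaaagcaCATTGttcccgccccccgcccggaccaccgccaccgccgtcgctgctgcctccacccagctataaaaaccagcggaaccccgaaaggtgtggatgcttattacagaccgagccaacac
Pdgfra: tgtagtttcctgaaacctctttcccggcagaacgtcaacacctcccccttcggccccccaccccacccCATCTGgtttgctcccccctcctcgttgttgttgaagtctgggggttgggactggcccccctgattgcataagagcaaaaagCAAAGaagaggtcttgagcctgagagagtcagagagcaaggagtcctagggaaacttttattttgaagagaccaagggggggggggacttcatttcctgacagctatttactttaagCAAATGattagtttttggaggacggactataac
Gfap: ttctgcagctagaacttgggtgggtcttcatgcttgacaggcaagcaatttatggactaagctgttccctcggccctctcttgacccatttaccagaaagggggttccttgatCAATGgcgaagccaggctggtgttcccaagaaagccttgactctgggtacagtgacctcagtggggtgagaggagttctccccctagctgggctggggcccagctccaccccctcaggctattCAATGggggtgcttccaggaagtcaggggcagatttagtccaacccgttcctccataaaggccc
Only the Pdgfra window among these 5 held CANNTG, at 2 places, while 72.3% of all 32851 promoter windows held it. The SOX core was present 4 times for Olig2, 2 times for Bcan, 2 times for Gfap, 1 time for Pdgfra and 0 times for Ptprz1, and 70.3% of all windows held it. A match in a window is a description of its letters and not a bound site.

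Tbk1het Tak1het libraries set against Tak1het libraries gave the largest number of called markers. Of the 26 tested, 5 rose (Gfap, Ptprz1, Bcan, Dpysl3 and Lox) and 0 fell. Of all tested genes 2.79% were called in this comparison, 0.736% of all tested genes being called higher. Ptprz1 averaged 13.5 ± 3.86 CPM in Tbk1het Tak1het and 0.631 ± 0.432 CPM in Tak1het (SD, n = 3 each), a log2 difference of 4.37 (SE 0.95, adjusted p = 0.0192). Bcan averaged 6.74 ± 1.0 CPM in Tbk1het Tak1het and 0.343 ± 0.226 CPM in Tak1het, a log2 difference of 4.30 (SE 0.95, adjusted p = 0.021). Of the 8 tested oligodendrocyte lineage markers, 2 rose, 0 fell and 6 did not pass the test; the median log2 difference of the 8 was 3.20, against 0.01 over all tested genes. Markers that passed the filter through the libraries in which they are high weigh on such a median. Olig1 and Olig2 did not pass, with log2 differences of 2.37 (adjusted p = 0.0719) and 4.98 (adjusted p = 0.0573). Libraries of the groups did not overlap for 11 markers higher in Tbk1het Tak1het (12.0% of all tested genes) and for 3 lower (12.5%), Aldoc, Aldh1l1 and Col1a1.

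These calls rest on few libraries. Leaving out each library in turn left between 1 and 6 called markers. It left only Lox without Tak1het replicate 2, only Dpysl3 without Tbk1het Tak1het replicate 3, 2 without Tak1het replicate 3 or Tbk1het Tak1het replicate 2, and 3 without Tak1het replicate 1. With the mitochondrial share as a covariate only Lox remained (adjusted p = 0.0194). With the Y-linked level as a covariate Ptprz1 and Bcan were not called (adjusted p = 0.0622 and 0.0730), while Aldoc, Olig2 and Dcx were. That level did not overlap between these groups, so the covariate cannot separate sex from genotype here. Among the 8 libraries with a low mitochondrial share, a split drawn after the shares were seen, Tak1het has 1 library. A fit there assumes that it varies like the other groups, and compares libraries and not genotypes. The log2 differences of Tbk1het Tak1het from that 1 library, for markers picked by this fit, were 3.32 for Olig1, 5.65 for Olig2, 4.03 for Ptprz1, 6.10 for Bcan and 2.71 for Dpysl3. For Gfap and Lox, which were called over all libraries, no call was kept within that split.

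Set against Tbk1het, the Tbk1het Tak1het libraries gave 1 called marker, Bcan, which rose. Bcan averaged 6.74 ± 1.0 CPM in Tbk1het Tak1het and 0.961 ± 0.93 CPM in Tbk1het, a log2 difference of 2.82 (SE 0.87, adjusted p = 0.037). That is 1 of 26 where 14.7% of all tested genes were called, 6.44% of all tested genes being called higher. At an unadjusted p under 0.05 there were 7 markers, with 28.6% of all genes. DESeq2 called 5 there, namely Olig1, Sox10, Ptprz1, Bcan and Dcx. Without Tbk1het replicate 1, or without any 1 of the 3 Tbk1het Tak1het libraries, or with the mitochondrial share as a covariate, 0 markers were called in this comparison. Without Tbk1het replicate 2, and without the 5 libraries with Tbk1 near the WT level, Olig1 was called in place of Bcan. All Tbk1het libraries lay on the high side of the mitochondrial share and all Tbk1het Tak1het libraries on the low side, so that share and the genotype cannot be told apart here. Libraries did not overlap for 9 markers higher in Tbk1het Tak1het (17.2% of all tested genes) and for 4 lower (16.4%). The 9 include Olig1, Olig2, Sox10, Pdgfra, Ptprz1 and Bcan, and the 4 are Aldh1l1, Gja1, Col3a1 and Dcn. Sox10 had 14, 10 and 10 counts in Tbk1het Tak1het and 0, 0 and 1 in Tbk1het. It passed the filter on low counts in part through the Tbk1het Tak1het libraries, which weighs on its place among the 9 and on its DESeq2 call.

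Set against WT, the Tbk1het Tak1het libraries gave 0 called markers of 26 in edgeR, where 6.07% of all tested genes were called. At an unadjusted p under 0.05 there were 8, with 20.2% of all genes, and DESeq2 called 1, Aldoc. Libraries did not overlap for Olig1, Olig2, Pdgfra and Bcan, higher in Tbk1het Tak1het (15.2% of all tested genes), and for Aldoc, Aldh1l1, Col1a1, Col1a2 and Col3a1, lower (14.4%). Olig2 had a log2 difference of 2.79 (SE 1.19, adjusted p = 0.188) and Aldoc a log2 difference of -1.24 (SE 0.40, adjusted p = 0.0743). Without WT replicate 3 Lox was called lower (log2 difference -1.71, adjusted p = 0.0432), without replicate 2 labelled Tbk1het Ripk1hom Aldoc was, and without replicate 1 labelled Tbk1het Tak1het Ripk1het Aldoc and Aldh1l1 were. In a fit of only these 6 libraries 6 markers were called, namely Aldoc, Aldh1l1, Olig2, Col1a1, Col1a2 and Col3a1. WT has 1 library on the low side of the mitochondrial share, so a fit within that side compares libraries and not genotypes.

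The libraries labelled Tbk1het Tak1het Ripk1het, set against Tbk1het Tak1het, gave 0 called markers of 26 in edgeR, where 2.45% of all tested genes were called. At an unadjusted p under 0.05 there were 9 (15.5% of all genes), and DESeq2 called 2, Aldoc and Lox. Libraries did not overlap for Cspg4, Mbp, Col1a1, Dcn and Lox, higher in the libraries labelled Tbk1het Tak1het Ripk1het (12.8%), and for Olig2, Sox10, Pdgfra, Bcan, Dcx and Dpysl3, lower there (11.3%). Bcan averaged 1.44 ± 0.436 CPM in the libraries labelled Tbk1het Tak1het Ripk1het and 6.74 ± 1.0 CPM in Tbk1het Tak1het, a log2 difference of -2.21 (SE 0.85, adjusted p = 0.198). The Tbk1 level goes against the label in all 3 of those libraries. Without replicate 1 labelled Tbk1het Tak1het Ripk1het, Aldoc and Aldh1l1 were called higher (log2 differences 1.63 and 1.48). The remaining libraries of that group all lay on the high side of the mitochondrial share, and all Tbk1het Tak1het libraries on the low side.

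The difference between 2 differences was also tested, a comparison added after the values had been seen: the Tbk1het effect in Tak1het cells minus the Tbk1het effect in cells with both Tak1 alleles. It was called for 4 of 26 markers, all higher, against 1.75% of all tested genes, 0.528% of all tested genes being called higher. The values were 5.84 for Ptprz1 (SE 1.25, adjusted p = 0.0264), 5.62 for Bcan (SE 1.27, adjusted p = 0.0336), 3.52 for Dpysl3 (SE 0.83, adjusted p = 0.0376) and 3.42 for Lox (SE 0.71, adjusted p = 0.0247). Over the 4 genotypes behind the test, each of these markers had its lowest mean in Tak1het. Olig1 reached 3.44 without a call (adjusted p = 0.0701). Without Tak1het replicate 2, Tak1het replicate 3 or Tbk1het Tak1het replicate 3, without the 5 libraries with Tbk1 near the WT level, or with the mitochondrial share as a covariate, 0 markers were called.

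Other genes of the oligodendrocyte lineage, from a further list, were read beside the 34. Cnp, an enzyme of myelin that other cells also make, averaged 78.2 CPM with a range of 58.9 to 101, Mag averaged 2.24 and the matrix proteoglycan Vcan 0.919. Mal had no count in any library. The 12 genes of that list summed to 88.7, 94.5 and 98.4 CPM in Tbk1het Tak1het, and Tak1het replicate 3 lay above these at 103 CPM.

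The astrocyte markers split in 2 by level. Aldh1l1, a folate enzyme, and Aldoc, an enzyme of glycolysis, had counts in every library, and 7 other markers were low. Aldoc had 9.24, 21.9 and 27.1 CPM in the libraries labelled Tbk1het Tak1het Ripk1het, 6.15, 11.9 and 5.92 in Tbk1het Tak1het, 7.59, 19.6 and 8.15 in those labelled Tbk1het Ripk1hom, 13.1, 19 and 18.9 in Tak1het, 11.2, 12.6 and 10.1 in Tbk1het and 22, 18 and 15.9 in WT. Aldh1l1 had 8.18, 35 and 28.4 CPM in the libraries labelled Tbk1het Tak1het Ripk1het, 11, 8.9 and 13.7 in Tbk1het Tak1het, 17.1, 15.1 and 17.4 in those labelled Tbk1het Ripk1hom, 13.9, 18.5 and 24.8 in Tak1het, 14.7, 18.4 and 16 in Tbk1het and 21.3, 31.4 and 16 in WT. Both were lower in every Tbk1het Tak1het library than in every WT and Tak1het library, and neither passed the test. All Tbk1het Tak1het libraries lay on the low side of the mitochondrial share, so genotype and share are not separated there. Median Aldoc was 8.70 CPM on that side and 18.9 CPM on the high side, and median Aldh1l1 13.8 and 19.9 CPM, with overlap. Aldoc was lower on the low side within every genotype that had libraries on both sides. Aldh1l1 was too, except in the libraries labelled Tbk1het Ripk1hom. Aldoc and Aldh1l1 ranked above the median of tested genes per length (58.5% of tested genes below Aldoc and 56.8% below Aldh1l1), where Gfap ranked above 13.4%. With the Y-linked level as a covariate, Aldoc was called lower in Tbk1het Tak1het, set against Tak1het (log2 difference -2.04, adjusted p = 0.00672) and set against WT (-1.63, adjusted p = 0.00620). The Y-linked level did not overlap between Tbk1het Tak1het and Tak1het, so the covariate cannot separate sex from genotype in that comparison.

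Gfap, the intermediate filament of astrocytes, had 1.72, 1.61 and 3.87 CPM in the libraries labelled Tbk1het Tak1het Ripk1het, 0.636, 2.03 and 1.29 in Tbk1het Tak1het, 0.258, 0 and 0.429 in those labelled Tbk1het Ripk1hom, 0, 0 and 0.0686 in Tak1het, 1.35, 0.685 and 1.13 in Tbk1het and 2.53, 0.589 and 0.928 in WT. The Tak1het libraries held 1 count together and the libraries labelled Tbk1het Ripk1hom were the next lowest. Tbk1het Tak1het had 56 counts against 1 in Tak1het, a ratio of 62.7 after scaling (95% exact interval 10.8 to 2521, counting error only), and the gene passed the test (adjusted p = 0.021). The fitted log2 difference of 5.61 depends on the small count added to each library. Against WT, the Tak1het libraries gave an adjusted p of 0.242 in edgeR, while DESeq2 called Gfap lower there (adjusted p = 0.00942).

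Slc1a3 and Slc1a2 are the glutamate transporters of astrocytes, and Gja1 is their gap junction protein. Slc1a3 had 0.237, 2.63 and 1.59 CPM in the libraries labelled Tbk1het Tak1het Ripk1het, 2.07, 4.05 and 5.17 in Tbk1het Tak1het, 2.38, 0.971 and 2.25 in those labelled Tbk1het Ripk1hom, 1.37, 1.29 and 0 in Tak1het, 0.0482, 0.571 and 7.02 in Tbk1het and 4.43, 3.42 and 3.36 in WT. Gja1 had 4.74, 0.146 and 2.94 CPM in the libraries labelled Tbk1het Tak1het Ripk1het, 0.212, 1.24 and 0.895 in Tbk1het Tak1het, 3.56, 0.971 and 3.49 in those labelled Tbk1het Ripk1hom, 0.137, 1.29 and 4.53 in Tak1het, 1.59, 2.28 and 3.91 in Tbk1het and 0.633, 1.94 and 7.07 in WT. Their highest libraries differed (Tbk1het replicate 3 for Slc1a3 and WT replicate 3 for Gja1), and the 9 astrocyte markers had their highest values spread over 7 libraries. The others ranged from 0 to 1.83 CPM for Slc1a2, 0 to 0.913 for the water channel Aqp4, 0 to 0.212 for the calcium-binding protein S100b and 0 to 2.15 for the secreted chaperone Clu. No single library thus carried the set of astrocyte markers. Of 12 further astrocyte genes, Agt had no count in any library, 7 were tested and 0 were called in any of the 9 comparisons or in the overall test. Glul, glutamine synthetase, averaged 199 CPM (136 to 245) and Fabp7, a fatty acid carrier, 24.9 CPM (9.42 to 41.2).

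The 5 neuron markers did not all peak in the same library. Each had a higher median in the 8 libraries with a low mitochondrial share than in the other 10. Snap25 was near the floor on both sides (0.108 and 0 CPM), and the cause of this shared direction was not tested. Dcx, a microtubule protein of migrating young neurons, had 0.711, 0 and 0 CPM in the libraries labelled Tbk1het Tak1het Ripk1het, 1.7, 2.48 and 1.89 in Tbk1het Tak1het, 2.74, 0.139 and 3.65 in those labelled Tbk1het Ripk1hom, 1.0, 0 and 0.343 in Tak1het, 0, 0 and 0 in Tbk1het and 0, 0.118 and 6.38 in WT. The 8 libraries with a low mitochondrial share held 0.711 to 6.38 CPM of Dcx and the other 10 held 0 to 0.343 CPM, without overlap. It was the 1 tested marker of 26 of which that held, and 0.692% of all tested genes lay above in this way, while 0 markers lay below (0.491%); the split was drawn after the shares had been seen. All 3 Tbk1het Tak1het libraries lay on the low side of the share and all 3 Tbk1het libraries, at 0 for Dcx, on the high side. DESeq2 called Dcx higher in that comparison, and edgeR did not (adjusted p = 0.055).

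Tubb3, the tubulin of neurons, had 5.15, 0 and 2.52 CPM in the libraries labelled Tbk1het Tak1het Ripk1het, 1.59, 1.13 and 2.44 in Tbk1het Tak1het, 7.9, 0.555 and 4.61 in those labelled Tbk1het Ripk1hom, 0.683, 1.17 and 1.1 in Tak1het, 0, 0.97 and 2.05 in Tbk1het and 0.316, 2.12 and 4.12 in WT. Its highest library was labelled Tbk1het Ripk1hom replicate 1, which also held the highest values of Snap25, a synaptic protein (0 to 1.14 CPM over all libraries), and of Stmn2, a protein of growing axons (0 to 3.0 CPM). The median of Tubb3 was 3.28 CPM on the low side of the mitochondrial share and 1.03 CPM on the high side, and that of Stmn2 0.930 and 0 CPM, both with overlap.

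Dpysl3, a protein of growth cones, had the highest mean of the neuron markers. It had 7.52, 7.6 and 7.23 CPM in the libraries labelled Tbk1het Tak1het Ripk1het, 8.32, 11.3 and 8.31 in Tbk1het Tak1het, 4.65, 3.05 and 5.85 in those labelled Tbk1het Ripk1hom, 1.41, 0.82 and 1.1 in Tak1het, 0.578, 7.08 and 4.9 in Tbk1het and 2.97, 5.83 and 8.52 in WT. The Tak1het libraries lay together at the low end with Tbk1het replicate 1. The median of Dpysl3 was 7.91 CPM on the low side of the mitochondrial share and 3.98 CPM on the high side, with overlap. Dpysl3 rose in Tbk1het Tak1het set against Tak1het, by 3.05 on the log2 scale (SE 0.62, adjusted p = 0.0116). In Tak1het set against WT its log2 difference was -2.37 (SE 0.60, adjusted p = 0.252), which DESeq2 called (adjusted p = 0.0170). Of 12 further neuron genes, 6 were tested and 0 called. Eno2, an enolase that other cells also make, averaged 4.49 CPM (1.59 to 7.81), the microtubule protein Map2 2.33 CPM (0 to 6.61) and the growth cone protein Gap43 0.654 CPM (0 to 1.97), while Slc17a6 and Nefm had no count in any library.

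Fibroblast markers summed to at most 8.47 CPM in every Tbk1het Tak1het and Tak1het library and in those labelled Tbk1het Ripk1hom. They ranged from 8.05 to 53.8 CPM between libraries of the other genotypes. The 6 summed to 11.3, 14.8 and 53.8 CPM in the libraries labelled Tbk1het Tak1het Ripk1het, 4.34, 4.62 and 6.76 in Tbk1het Tak1het, 7.38, 2.43 and 8.47 in those labelled Tbk1het Ripk1hom, 3.1, 2.81 and 4.11 in Tak1het, 11.2, 8.05 and 23.1 in Tbk1het and 53.8, 15.4 and 10.8 in WT. Replicate 3 labelled Tbk1het Tak1het Ripk1het and WT replicate 1 stood far above the rest. Each of the 6 markers had its highest value in 1 of those 2 libraries, Col1a1, Col1a2 and Lum in the library labelled Tbk1het Tak1het Ripk1het and Col3a1, Dcn and Lox in the WT library. Both lay on the high side of the mitochondrial share, where all 6 markers had the higher median (Col1a2 2.97 against 0.700 CPM, Lox 3.90 against 1.86). In both of these genotypes the low-share library had the lowest sum. In those labelled Tbk1het Ripk1hom the high-share library did. The part of the share in these sums was not tested.

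Lox, lysyl oxidase, crosslinks collagen outside the cell. It had 5.92, 5.56 and 7.93 CPM in the libraries labelled Tbk1het Tak1het Ripk1het, 1.43, 1.58 and 3.43 in Tbk1het Tak1het, 1.14, 1.94 and 2.15 in those labelled Tbk1het Ripk1hom, 0.273, 0.351 and 0.274 in Tak1het, 3.47, 4.34 and 3.18 in Tbk1het and 9.36, 4.77 and 2.43 in WT. The 3 Tak1het libraries were the lowest of the 18, without overlap, as held for 0.0967% of all tested genes. In Tak1het set against WT, Lox was the 1 called marker of 26, where 0.0149% of all tested genes were called and 0.00744% called lower. Its levels of 0.30 ± 0.0448 CPM in Tak1het and 5.52 ± 3.53 CPM in WT gave a log2 difference of -4.17 (SE 0.56, adjusted p = 0.00951). Set against Tak1het, Lox rose in Tbk1het Tak1het by 2.83 on the log2 scale (SE 0.55, adjusted p = 0.00915); these comparisons share the Tak1het libraries. The call against WT was lost without Tak1het replicate 1 or 2 (adjusted p = 0.0772 and 0.105) and in the fit of only the libraries compared (adjusted p = 0.364). Within the high side of the mitochondrial share it was not kept (log2 difference -4.47, adjusted p = 0.0571), nor within the low side (-3.17, adjusted p = 0.128, 1 library a group). The overall test called Lox under each of the 26 alternatives that could be run for it.

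The same comparison of Tak1het with WT held 11 of 26 tested markers whose Tak1het libraries all lay below the WT libraries, where 7.33% of all tested genes did so, and 0 whose libraries lay above (7.74%). The 11 are Gfap, Slc1a3, Clu, Olig1, Ptprz1, Bcan, Dpysl3, Col1a1, Col1a2, Col3a1 and Lox, from 4 cell types. At an unadjusted p under 0.05 there were 9 markers (9.47% of all genes), and DESeq2 called 4 (Gfap, Ptprz1, Dpysl3 and Lox). The median log2 difference of the 26 was -1.77, against 0.00 over all tested genes. Over the high side of the mitochondrial share 0 markers were called with 2 libraries a group. The low side has 1 library a group, which compares those libraries and not the genotypes. WT held Y-linked reads in 2 of 3 libraries (107, 50.2 and 0 CPM), and Tak1het 3.02, 0 and 0 CPM.

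Col1a1, Col1a2 and Col3a1 encode fibrillar collagens. Col1a1 had 1.6, 2.49 and 15.2 CPM in the libraries labelled Tbk1het Tak1het Ripk1het, 1.54, 1.58 and 1.09 in Tbk1het Tak1het, 4.08, 0 and 2.68 in those labelled Tbk1het Ripk1hom, 2.37, 1.64 and 1.78 in Tak1het, 0.0964, 1.48 and 5.57 in Tbk1het and 14.6, 4.12 and 4.58 in WT. Col1a2 had 0.711, 3.95 and 13.3 CPM in the libraries labelled Tbk1het Tak1het Ripk1het, 0.689, 0.225 and 1.19 in Tbk1het Tak1het, 0.413, 0.485 and 1.93 in those labelled Tbk1het Ripk1hom, 0.364, 0.703 and 0 in Tak1het, 3.33, 0.114 and 2.65 in Tbk1het and 6.9, 3.3 and 2.14 in WT. Col3a1 had 2.49, 0 and 11.7 CPM in the libraries labelled Tbk1het Tak1het Ripk1het, 0.689, 0.788 and 0.647 in Tbk1het Tak1het, 1.76, 0 and 1.72 in those labelled Tbk1het Ripk1hom, 0, 0 and 1.37 in Tak1het, 2.31, 1.26 and 7.42 in Tbk1het and 16.5, 2.3 and 1.62 in WT. All 3 collagens were lower in each Tbk1het Tak1het library than in each WT library, and none passed the test (adjusted p from 0.222 to 0.245).

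Dcn and Lum are small matrix proteoglycans. Dcn had 0.474, 2.19 and 4.76 CPM in the libraries labelled Tbk1het Tak1het Ripk1het, 0, 0.451 and 0.0995 in Tbk1het Tak1het, 0, 0 and 0 in those labelled Tbk1het Ripk1hom, 0.0911, 0.117 and 0.686 in Tak1het, 1.49, 0.856 and 3.31 in Tbk1het and 6.01, 0.942 and 0 in WT. All 3 libraries labelled Tbk1het Ripk1hom were at 0 for Dcn, and so was WT replicate 3. DESeq2 called Dcn lower in them, set against WT (adjusted p = 0.0431) and set against Tbk1het (adjusted p = 0.00408), and edgeR did not (adjusted p = 0.934 and 0.113). Lum ranged from 0 to 0.933 CPM. Of 12 further fibroblast genes, 7 were tested and 0 called, and the collagen Col5a2 averaged 1.95 CPM (0 to 5.69), the proteoglycan Bgn 1.14 CPM (0 to 3.99) and the matrix protein Postn 0.526 CPM (0 to 1.94).

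**Figure D4:**
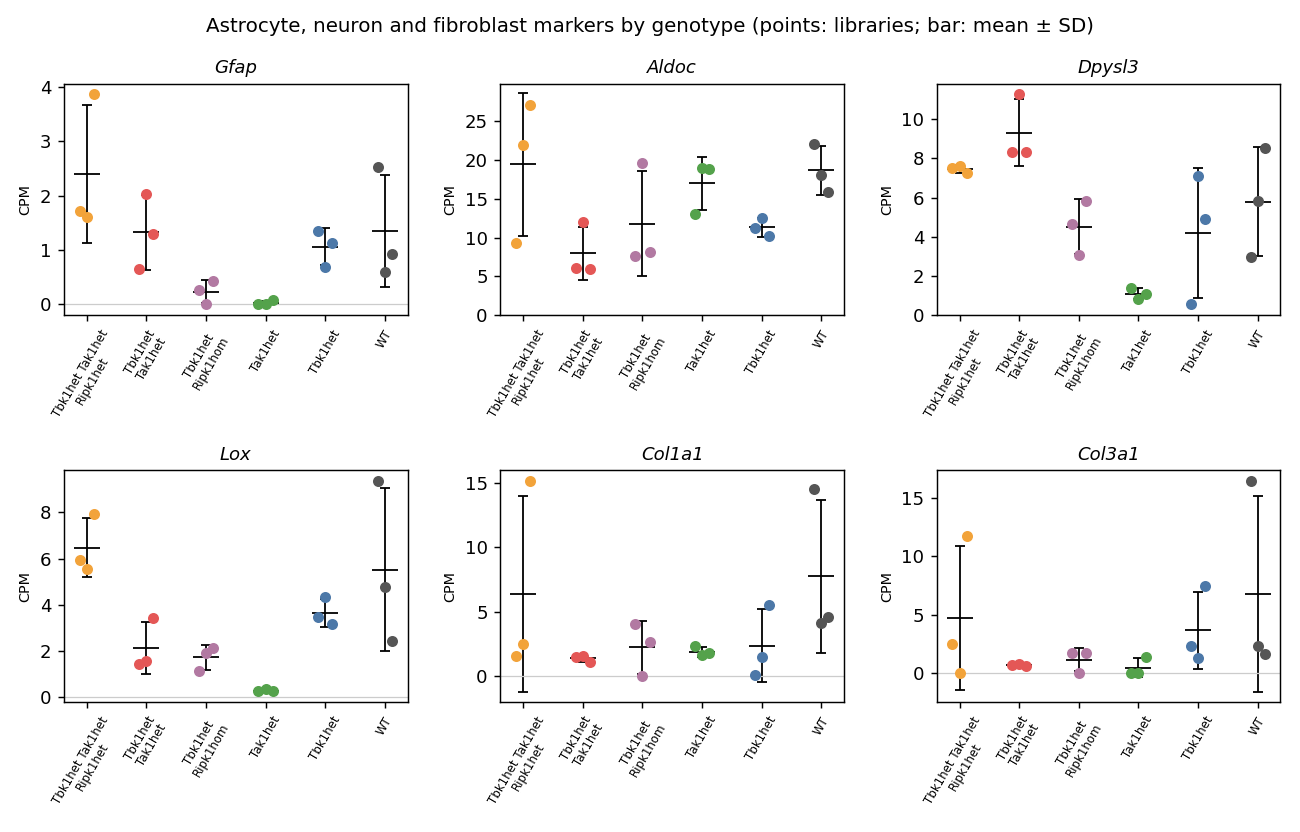
Level (CPM) of 2 astrocyte, 1 neuron and 3 fibroblast markers by genotype; points are libraries, and the bar and whiskers give the mean and SD of 3 libraries. The Tak1het points of Gfap, Dpysl3 and Lox lie low, with means of 0.0229 ± 0.0396, 1.11 ± 0.296 and 0.30 ± 0.0448 CPM, and the collagens are high in 1 library labelled Tbk1het Tak1het Ripk1het and 1 WT library.

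Of the mural markers, Acta2 alone had counts in every library. Acta2, smooth muscle actin, which activated fibroblasts also make, had 1.54, 7.31 and 9.61 CPM in the libraries labelled Tbk1het Tak1het Ripk1het, 1.22, 0.788 and 3.48 in Tbk1het Tak1het, 1.91, 0.971 and 0.751 in those labelled Tbk1het Ripk1hom, 3.14, 1.7 and 1.17 in Tak1het, 2.17, 1.14 and 7.42 in Tbk1het and 10.4, 5.36 and 1.91 in WT. Like Col3a1 it was highest in WT replicate 1 and next highest in replicate 3 labelled Tbk1het Tak1het Ripk1het. Pdgfrb, the receptor of pericytes, ranged from 0 to 0.585 CPM, and Vtn, which brain pericytes make, had 1 count in all. Of 10 further mural genes, Rgs5, Myh11, Des and Higd1b had no count in any library, 3 were tested and 0 called. Anpep, an aminopeptidase that macrophages also carry, averaged 94 CPM (40.9 to 165), Tagln 0.27 and Cnn1, both of smooth muscle, 0.235 CPM.

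Pecam1, an adhesion protein of endothelium and leukocytes, had 1.6, 1.24 and 0 CPM in the libraries labelled Tbk1het Tak1het Ripk1het, 0.954, 1.13 and 1.99 in Tbk1het Tak1het, 0.981, 0 and 0.965 in those labelled Tbk1het Ripk1hom, 0.911, 1.76 and 2.13 in Tak1het, 2.7, 1.77 and 3.38 in Tbk1het and 1.08, 0 and 2.26 in WT. Cldn5, the tight junction protein of brain endothelium, ranged from 0 to 0.331 CPM. Both were highest in Tbk1het replicate 3. Of 10 further endothelial genes, Tie1, Tek, Slco1a4, Emcn, Erg and Ly6c1 had no count in any library, 3 were tested and 0 called. The receptors Flt1 and Kdr averaged 8.0 CPM (1.45 to 17.4) and 3.78 CPM (0 to 9.8), and the cadherin Cdh5 0.29 CPM (0 to 1.11).

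In the other 4 comparisons 0 of 26 markers were called in edgeR. In Tbk1het set against WT, 0.0521% of all tested genes were called, 1 marker had an unadjusted p under 0.05 (10.2% of all genes) and DESeq2 called 0. There Aldoc and Clu lay below all WT libraries (6.28% of all tested genes), and 0 markers lay above (6.29%). In the libraries labelled Tbk1het Ripk1hom set against WT, 0.00% of tested genes were called, 5 markers had an unadjusted p under 0.05 (5.12% of all genes) and DESeq2 called 1, Dcn. Set against Tbk1het, the same libraries gave 0.521% of tested genes called, 6 markers with an unadjusted p under 0.05 (15.3% of all genes) and again Dcn in DESeq2. They lay above all Tbk1het libraries for Mbp, Stmn2 and Dcx (8.57% of all tested genes) and below them for Gfap, Dcn, Lox and Pecam1 (8.04%). In the libraries labelled Tbk1het Tak1het Ripk1het set against WT, 0.00% of tested genes were called, 0 markers had an unadjusted p under 0.05 (7.99% of all genes) and DESeq2 called 0. There Slc1a3 lay below all WT libraries (7.52% of all tested genes), and 0 markers lay above (6.73%). The libraries labelled Tbk1het Ripk1hom lay below all WT libraries for 7 markers (5.18% of all tested genes), Gfap, Slc1a3, Olig1, Col1a1, Col1a2, Lox and Acta2, and above them for 1, Mbp (5.64%).

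Markers of cells outside the 6 types were read as well. Ttr, the transthyretin of the choroid plexus, had 3.66, 2.93 and 4.43 CPM in Tbk1het Tak1het, 0, 0 and 0 in the libraries labelled Tbk1het Tak1het Ripk1het, 0, 0.416 and 0 in those labelled Tbk1het Ripk1hom, 0.729, 0 and 0 in Tak1het, 0, 0.571 and 0 in Tbk1het and 0.633, 0 and 0 in WT. The 3 Tbk1het Tak1het libraries lay above all others, as held for 2.54% of all tested genes. Ttr was picked after its values were seen, and it passed the filter on low counts in part through those libraries. Among 7 ependymal and choroid plexus genes 3 were tested and 0 called, Cfap126 averaged 0.852 CPM, Folr1 0.318 CPM, and Ccdc153, Tmem212 and Kl had no count. Of 7 genes of border macrophages, which live in the meninges and around vessels, Mrc1 and Pf4 were the most abundant. Lyve1 had 0.106, 2.37 and 1.09 CPM in Tbk1het Tak1het, 3.01, 6.03 and 5.35 in Tak1het, 98.2, 0.571 and 156 in Tbk1het and 4.75, 8.77 and 0.522 in WT, so that Tbk1het replicates 1 and 3 stood far above the rest. Lyve1 and F13a1 fell in Tbk1het Tak1het set against Tbk1het (adjusted p = 0.00524 and 0.0228), the comparison in which Bcan was called. Of 9 genes of other blood cells 1 was tested, S100a8 of neutrophils and monocytes (2.05 CPM), which fell in Tbk1het Tak1het set against Tak1het (log2 difference -2.59, adjusted p = 0.0464) and set against WT (-2.41, adjusted p = 0.0411); Hba-a1, Hbb-bs, Ly6g and Nkg7 had no count. Of the microglia list, Itgam and Ptprc fell in Tbk1het Tak1het set against WT (log2 differences -0.94 and -0.82, adjusted p = 0.00879 and 0.00171), 7 of its 17 genes were called in Tbk1het Tak1het set against Tbk1het (2 higher and 5 lower), 2 in the libraries labelled Tbk1het Tak1het Ripk1het set against Tbk1het Tak1het, and 0 in edgeR in Tbk1het Tak1het set against Tak1het, with 9 at an unadjusted p under 0.05. The part of these cells in the levels of the 34 markers was not tested.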

How the data were processed

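Whole-number counts of reads per gene were deposited for 18 Smart-seq2 libraries of amplified messenger RNA. The authors made these counts with STAR and featureCounts on mm10, per the submitters' processing notes, while the labels' extraction protocol names RSEM; versions, annotation and strand setting are not given in the sources used here. Reads carry no molecular identifiers, so count limits and intervals cover counting error only.

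Symbols were matched to the table's gene IDs with GENCODE M21 on GRCm38, and 224 IDs without a symbol (at most 0.00437% of a library's counts) stayed in the tests. The markers and further lists were chosen with earlier results of these data known. CPM divide counts by the total scaled with the trimmed mean of M values; levels per length use merged exons. Genes passing edgeR's filterByExpr over the 6 genotypes (13447 of 50686) entered edgeR's quasi-likelihood test (edgeR 4.0.16, R 4.3.3), with all 18 libraries in 1 fit and Benjamini-Hochberg adjustment over all tested genes at 0.05. The tests were 1 over all 6 genotypes, 9 pairs of genotypes that share libraries, and 1 interaction added later. DESeq2 1.42.0, other scaling, filters, a replicate block, single libraries left out and, after the data had been seen, the Y-linked level, the mitochondrial share, its 2 sides and the 5 libraries with Tbk1 near WT were tried as alternatives. Scripts were tested on simulated data. Values per library are given for markers averaging at least 1 CPM or called, and for others the range; of each further list the 3 highest genes by mean CPM and up to 4 called are named, except where an item is not reported here, and genes with no count or singled out beyond this (Tmem119, P2ry12, Csf1r, Ttr) were chosen after their values were seen.

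Depth was 8016559 to 22989116 counts per library. Libraries with the same replicate number did not deviate together: in 0 of 15 pairs of genotypes did every same-numbered pair correlate above 0.1. No library duplicated another of its own genotype. Pairs across genotypes were not checked for this.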

Additional observations from a re-analysis of the deposited data

Results flagged for a closer look

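For 4 markers the Tbk1het effect differed between cells with and without the Tak1ΔM allele by a test of the difference itself, the interaction described above. For Ptprz1 it was 5.84 (log2), from 4.37 in Tbk1het Tak1het set against Tak1het and -1.47 in Tbk1het set against WT. For Bcan it was 5.62, from 4.30 and -1.32 in the same comparisons. For Dpysl3 it was 3.52, from 3.05 and -0.47, and for Lox 3.42, from 2.83 and -0.59. The Tbk1het effect against WT was not called for any of the 4 (adjusted p 0.718 for Lox).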

How the results depend on the processing

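None of the called differences of Gfap, Ptprz1, Bcan, Dpysl3 and Lox reversed under the alternatives run for them; other markers were followed only by counts of calls. Counts of called markers, of 26 tested unless the filter changed, moved as follows. Moves that were small relative to the first count are left out. DESeq2 gave 9 in the test over all 6 genotypes, 4 in Tak1het against WT, 5 in Tbk1het Tak1het against Tbk1het, 1 each in Tbk1het Tak1het against WT and in the libraries labelled Tbk1het Ripk1hom against WT and against Tbk1het, and 2 in those labelled Tbk1het Tak1het Ripk1het against Tbk1het Tak1het. Testing without the filter on low counts gave 17 over all 6 genotypes, 8 in Tak1het against WT, 10, 7 and 9 in Tbk1het Tak1het against WT, Tbk1het and Tak1het, 9 in the libraries labelled Tbk1het Tak1het Ripk1het against Tbk1het Tak1het, 3 and 2 in those labelled Tbk1het Ripk1hom against WT and Tbk1het, 1 in Tbk1het against WT and 9 in the interaction. Fitting only the libraries compared gave 0 in Tak1het against WT, 6, 3 and 8 in Tbk1het Tak1het against WT, Tbk1het and Tak1het, and 1 in the libraries labelled Tbk1het Tak1het Ripk1het against Tbk1het Tak1het. In Tbk1het Tak1het against Tbk1het, no scaling beyond totals gave 5 and a mean of at least 1 CPM gave 3.

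The replicate block gave 2 called markers over all 6 genotypes, 1 in Tbk1het Tak1het against WT and 3 in Tbk1het Tak1het against Tbk1het; same-numbered libraries share only a number (correlations of deviations from -0.436 to 0.442; 10 of 27 best with their own number).

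The Y-linked level as a covariate gave 2 in Tbk1het Tak1het against WT, 4 against Tbk1het, and 3 in the libraries labelled Tbk1het Tak1het Ripk1het against Tbk1het Tak1het. Over all 6 genotypes it left the count unchanged, but with Aldoc and Dcx in place of Ptprz1 and Bcan. The mitochondrial share as a covariate gave 1 over all 6 genotypes, 0 and 1 in Tbk1het Tak1het against Tbk1het and Tak1het, 1 in the libraries labelled Tbk1het Tak1het Ripk1het against Tbk1het Tak1het, and 0 in the interaction. Among libraries with a low share, WT, Tak1het and the group labelled Tbk1het Tak1het Ripk1het each have 1 library, which is assumed to vary like the other groups. Fits with such an arm compare libraries and not genotypes, and their counts are left out. Among libraries with a high share, 0 markers were called in Tak1het against WT. Without the 5 libraries with Tbk1 near WT, counts were 0 in Tak1het against WT, 1 in Tbk1het Tak1het against WT and 0 in the interaction.

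Leaving out 1 library at a time gave 1 to 6 over all 6 genotypes, 0 to 1 in Tak1het against WT, 0 to 2, 0 to 3 and 1 to 6 in Tbk1het Tak1het against WT, Tbk1het and Tak1het, 0 to 2 in the libraries labelled Tbk1het Tak1het Ripk1het against Tbk1het Tak1het, and 0 to 5 in the interaction; the other 4 comparisons stayed at 0. The cause of these moves was not tested. Scaling by totals alone moved the median log2 difference of all genes by 0.173 in Tbk1het Tak1het against Tak1het, 0.189 against WT and 0.231 against Tbk1het. At this depth a marker under 0.130 to 0.374 CPM of unscaled totals in a library cannot be told from absent.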
